A study of Mus musculus with 53 samples.

Results

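Semaphorins are guidance proteins that steer migrating neurons and growing axons. Plexins are their main receptors, and neuropilins are co-receptors that bind the secreted class 3 semaphorins and pass the signal through A-type plexins. In the developing cerebellum, granule cell progenitors divide in the external granule layer, and their daughters then migrate inwards past Purkinje cells, a movement in which transmembrane semaphorins and Plxna2 are known to take part. Described here are 10 genes of this system that were chosen by name as known regulators of granule cell migration: the secreted ligands Sema3a, Sema3d and Sema3g, the transmembrane ligands Sema6a and Sema6d, the GPI-anchored Sema7a, the receptors Plxna2 and Plxna4, and the co-receptors Nrp1 and Nrp2. All 10 were found among the 55573 genes of the P2 tables and among the 57010 genes of the P7 tables. The rule uses names only, but the members were chosen with earlier results of these data known.

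The mutants carried Atoh1Cre, a recombinase driven by Atoh1 regulatory sequence and active in granule cell progenitors and other cells born at the rhombic lip, with homozygous floxed Insm1 (Atoh1Cre; Insm1fl/fl) or with homozygous floxed Tead1 and Tead2 (Atoh1Cre; Tead1fl/fl; Tead2fl/fl). Insm1 encodes a zinc finger transcription factor, and Tead1 and Tead2 encode TEA domain factors. The controls of each line had the same floxed alleles without Cre and are called Insm1 controls and Tead1/2 controls. Bulk RNA came from cerebella of single pups at postnatal day 2 (P2), with 4 controls and 4 mutants of the Insm1 line and 3 controls and 4 mutants of the Tead1/2 line, and the labels put each line in a batch of its own. Single cells came from 1 cerebellum an animal at postnatal day 7 (P7), with 2 controls and 3 mutants a line. In each P7 group the animal numbered 1 had all lobules dissected, and the others were taken without lobules IX and X. All P7 libraries share 1 batch in the labels.

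The P2 libraries held 28066726 to 64518819 counts. At P7, 77236 cells were kept, 4662 to 10423 a library, with median depths of 6661 to 9867.5 transcripts (UMIs), and 37800 of them lay in granule-lineage clusters, with 13182037 to 68075720 UMIs a library. In the lineage cells, markers of granule progenitors (14 genes) summed to 3665 and 3993 CPM, that is counts scaled to a common library total, in Insm1 controls and 3303 to 3505 CPM in their mutants, and to 4433 and 4188 against 3330 to 3805 CPM in the Tead1/2 line, so every mutant was below its controls. Markers of granule neurons (16 genes) summed to 7615 to 8661 CPM in all 10 libraries. Progenitor-like clusters of the lineage held 18189664 and 11469865 UMIs in Insm1 controls and neuron-like clusters 49886056 and 25741549. In Insm1 mutants they held 10337768, 11986371 and 6379829 against 13703314, 12520964 and 6802208. In Tead1/2 controls the same UMIs were 22989035 and 14750969 against 32825510 and 26227304. In Tead1/2 mutants they were 8926302, 10467845 and 10992435 against 10916332, 13520560 and 11081973. In this clustering, progenitor-like cells thus gave a larger share of the lineage UMIs in mutants of both lines. The direction turned in both lines with the 10 genes left out of clustering and at the default doublet threshold of the tool Scrublet. With the 10 genes left out, Insm1 controls held 48728606 and 29088936 progenitor-like UMIs against 16154997 and 8716938 neuron-like ones. Insm1 mutants then held 12954760, 15159766 and 8474242 against 11453183, 10517843 and 5472377. With doublet calls ignored the Tead1/2 shares overlapped. The part of this mix and of the lower progenitor markers in the members' changes was not tested. Insm1 RNA fell in Insm1 mutants at P2 (log2 change -1.91, SE 0.30, edgeR adjusted p = 0.0194) and in their P7 lineage cells (-2.52, SE 0.39, adjusted p = 0.000459). In the lineage cells of Tead1/2 mutants, Tead2 fell (-1.64, SE 0.08, adjusted p = 4.67e-08) and Tead1 counts rose (1.12, SE 0.06, adjusted p = 1.24e-07). At P2 neither passed (Tead1 -0.09, adjusted p = 0.746, and Tead2 -0.22, adjusted p = 0.314). Tead2 there stood at 23.6, 25.7 and 21.5 CPM in Tead1/2 controls and 19.2, 20.1, 17.6 and 26.15 CPM in their mutants, against 72.3 to 90.8 CPM in the 8 libraries of the Insm1 line, and Tead1 at 33.4 to 54.2 CPM in Tead1/2 controls and 38.1 to 50.7 CPM in mutants. The Tead2 groups overlapped only through the library labelled Tead1/2 mutant 4 (26.15 CPM), which also stood apart by muscle markers, as given below. The Tead1 groups overlapped without it too. Over all libraries the RNA of the deleted genes therefore does not separate the labelled groups of the Tead1/2 line at P2. In the P7 lineage, where all libraries share a batch, Tead2 was also lower in Tead1/2 controls (34.8 and 36.3 CPM) than in Insm1 controls (68.7 and 71.8 CPM), and it was 10.4 to 12.6 CPM in Tead1/2 mutants. These counts cover whole genes, so they do not measure the deleted exons.

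Sequences upstream of the genes are shown for the 4 members whose RNA the results below turn on most and that have an entry in the RefSeq table of promoters. Windows were read for 8 of the 10 members, as 9 windows of 300 bases (250 before to 50 after a start site, build GRCm38.p6). The windows shown lie on the plus strand at chr14:31217623-31217922 (Sema3g), chr1:194619579-194619878 (Plxna2), chr8:128358823-128359122 (Nrp1) and chr1:62703067-62703366 (Nrp2). Capitals mark matches, on either strand, to CANNTG, the E-box bound by bHLH factors such as Atoh1, or to GGAATG, the core of the TEAD motif.
Sema3g: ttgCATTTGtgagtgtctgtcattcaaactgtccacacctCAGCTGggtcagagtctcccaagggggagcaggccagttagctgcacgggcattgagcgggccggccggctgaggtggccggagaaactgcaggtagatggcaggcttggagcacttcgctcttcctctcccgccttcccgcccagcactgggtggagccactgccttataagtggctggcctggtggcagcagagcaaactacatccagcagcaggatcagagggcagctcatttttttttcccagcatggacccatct
Plxna2: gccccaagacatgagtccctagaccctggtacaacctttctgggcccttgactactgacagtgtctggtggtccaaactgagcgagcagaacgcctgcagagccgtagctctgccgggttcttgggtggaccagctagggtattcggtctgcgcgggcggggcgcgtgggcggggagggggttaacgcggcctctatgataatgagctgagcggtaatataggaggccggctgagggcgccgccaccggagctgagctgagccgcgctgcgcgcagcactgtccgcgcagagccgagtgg
Nrp1: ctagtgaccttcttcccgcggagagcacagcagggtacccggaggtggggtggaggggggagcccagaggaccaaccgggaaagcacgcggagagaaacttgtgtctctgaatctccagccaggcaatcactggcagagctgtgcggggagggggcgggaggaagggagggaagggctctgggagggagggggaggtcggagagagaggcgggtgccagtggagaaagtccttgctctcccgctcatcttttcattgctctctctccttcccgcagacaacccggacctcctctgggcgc
Nrp2: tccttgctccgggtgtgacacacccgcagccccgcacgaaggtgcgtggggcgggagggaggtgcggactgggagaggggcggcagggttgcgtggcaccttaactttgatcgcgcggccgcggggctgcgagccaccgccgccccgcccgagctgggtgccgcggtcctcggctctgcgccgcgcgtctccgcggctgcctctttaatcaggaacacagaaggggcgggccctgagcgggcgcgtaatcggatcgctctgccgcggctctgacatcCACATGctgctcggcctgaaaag
GGAATG stood in 0 of the 9 windows of these 8 members, against 14.7% of all 32841 windows of this length. CANNTG stood in 7 of the 9, against 72.3% of all windows. The Sema3g window held 2 CANNTG matches and the Nrp2 window 1, and the windows of Plxna2 and Nrp1 held none. These are letters in a window and not measured binding. Plxna4 had no entry, and Sema6a was left out of this search.

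At P2, none of the 10 genes passed the test in either mutant, where edgeR called 0.689% (Insm1) and 0% (Tead1/2) of all genes. The smallest adjusted p in each line was that of Sema3g, a class 3 semaphorin that signals mainly through Nrp2. It was 3.50, 3.33, 4.94 and 4.62 CPM in Insm1 controls, against 2.45, 2.50, 2.50 and 2.33 CPM in the mutants. Among Tead1/2 animals it stood at 5.21, 4.96 and 4.27 CPM in controls, against 2.20, 2.47, 1.99 and 3.54 CPM in the mutants. Every mutant library was below every control library of its line. The log2 change was -0.73 (SE 0.15, edgeR adjusted p = 0.0796) with Insm1 deleted and -0.96 (SE 0.18, adjusted p = 0.0898) with Tead1 and Tead2 deleted. Of all genes tested at P2, 3.55% (Insm1) and 4.07% (Tead1/2) likewise had every mutant below every control.

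Sema7a, whose protein is held in the membrane by a lipid anchor, was 79.6, 67.9, 82.1 and 94.3 CPM in Insm1 controls, against 41.8, 51.1, 62.2 and 59.9 CPM in the mutants, again without overlap. The log2 change was -0.58 (SE 0.13, adjusted p = 0.115). Tead1/2 libraries read 62.6, 73.8 and 66.5 CPM in controls, against 43.2, 52.3, 50.1 and 67.3 CPM in the mutants. There the groups overlapped only through the library labelled Tead1/2 mutant 4 (-0.38, SE 0.12, adjusted p = 0.139). Sema6a, a ligand of Plxna2 and Plxna4 on granule cells, ranged over 163 to 248 CPM in Insm1 controls and 110 to 194 CPM in Insm1 mutants, and over 127 to 178 CPM and 110 to 142 CPM in the Tead1/2 line. Both lines overlapped for Sema6a (-0.44, adjusted p = 0.494, and -0.31, adjusted p = 0.169).

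**Figure D1:**
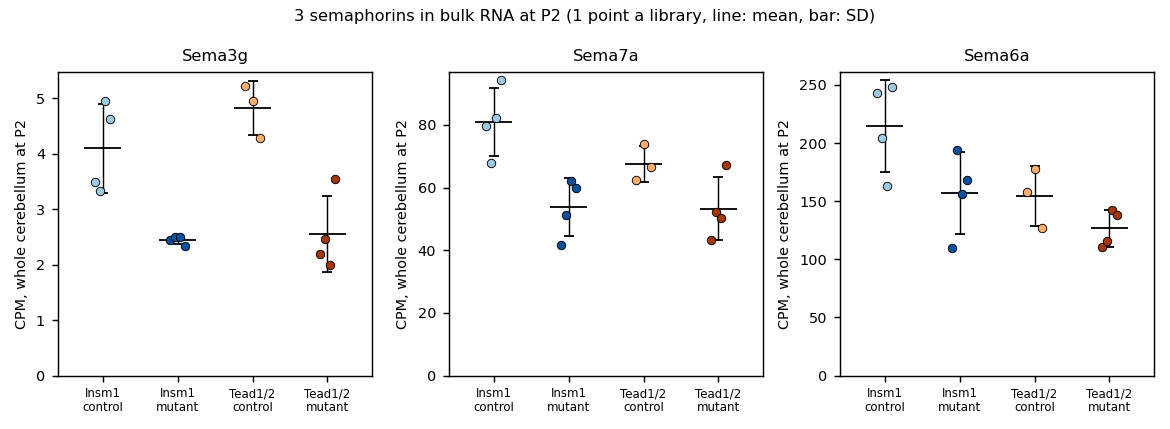
Normalised counts (CPM) of Sema3g, Sema7a and Sema6a in whole cerebellum at P2, 1 point a library, with the group mean (line) and SD (bar). Sema3g sat between 2.33 and 2.50 in the 4 Insm1 mutants and between 3.33 and 4.94 in their controls, and 1 Tead1/2 mutant library at 3.54 stood nearer its controls than the other 3.

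Both counts of 0 came from edgeR's quasi-likelihood test. It called 135 of 19582 genes in the Insm1 comparison and 0 of 20247 in the Tead1/2 comparison, where 1763 and 4052 genes had an unadjusted p under 0.05. DESeq2 called Sema3g and Sema7a in both lines, with adjusted p = 0.00449 and 0.00696 for Insm1 (1.59% of all genes called) and 0.000187 and 0.0321 for Tead1/2 (4.72% called). The library labelled Tead1/2 mutant 4 stood apart: the summed level of 18 skeletal muscle markers was 42.4 CPM there, against 200 to 273 CPM in the other 3 Tead1/2 mutants and 42.0 to 47.5 CPM in their controls. Without it, edgeR called both genes, Sema3g at -1.14 (adjusted p = 0.00202) and Sema7a at -0.51 (adjusted p = 0.00955), and 3.19% of all genes. In the Insm1 line the same muscle sum was 35.8 to 61.5 CPM in controls and 190 to 309 CPM in mutants. Granule progenitor markers summed to 1697 to 1807 CPM in Insm1 controls and 1465 to 1567 CPM in Insm1 mutants, and granule neuron markers to 2208 to 2427 and 1963 to 2130 CPM, both without overlap. Endothelial markers (8 genes) were also apart, at 148 to 164 CPM in Insm1 controls and 106 to 144 CPM in mutants, and so were unipolar brush cell markers (8 genes), at 180 to 189 and 191 to 226 CPM. In the Tead1/2 line these 4 sums overlapped and Purkinje markers (11 genes) did not, at 1600 to 1712 CPM in controls and 1770 to 1988 CPM in mutants. The part of these sums in the values of Sema3g and Sema7a was not tested. In whole tissue, fewer cells of a type and less RNA a cell cannot be told apart.

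None of the other 7 members passed at P2. In the Insm1 line their log2 changes were between -0.09 (Sema3a) and 0.08 (Sema3d). In the Tead1/2 line they were between -0.24 (Plxna4) and 0.30 (Sema3d), with adjusted p of 0.190 or more. Without Tead1/2 mutant 4, Sema3d was 10.9 to 12.8 CPM in Tead1/2 controls and 13.3 to 17.5 CPM in mutants (0.37, adjusted p = 0.0824). Nrp1, the co-receptor for Sema3a, stood at 23.4 to 25.9 CPM in Insm1 controls and 22.2 to 27.04 CPM in Insm1 mutants. Nrp2 stood at 24.8 to 29.9 CPM and 20.9 to 31.1 CPM in the same groups. The median log2 change over the 10 members was -0.06 (Insm1) and -0.17 (Tead1/2). The difference between both effects was called for 0 members and for 0% of 20837 genes at P2 by edgeR, and DESeq2 called 17 genes, no member among them, and 1435 genes had an unadjusted p under 0.05 by edgeR. At P2 line and batch cannot be told apart in that difference.

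At P7, in granule-lineage cells, 9 of the 10 members, a list chosen with earlier results of these data known, passed in each line. With Insm1 deleted, 6 rose and 3 fell, and with Tead1 and Tead2 deleted, 5 rose and 4 fell, where edgeR called 21.8% (13.3% higher, 8.43% lower) and 24.3% (14.5% higher, 9.83% lower) of the 17162 genes tested. Each line has its own controls. With 2 controls and 3 mutants a line, groups without overlap were frequent among all genes. Every mutant was above every control for 23.4% (Insm1) and 23% (Tead1/2) of them and below for 27.8% and 26.9%. In both lines Sema3g, Sema6a and Sema6d fell while Sema3d, Plxna2, Plxna4, Nrp1 and Nrp2 rose, so both receptors and both co-receptors were higher in mutants. The median log2 change over the members was 0.59 (Insm1) and 0.10 (Tead1/2).

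**Figure D2:**
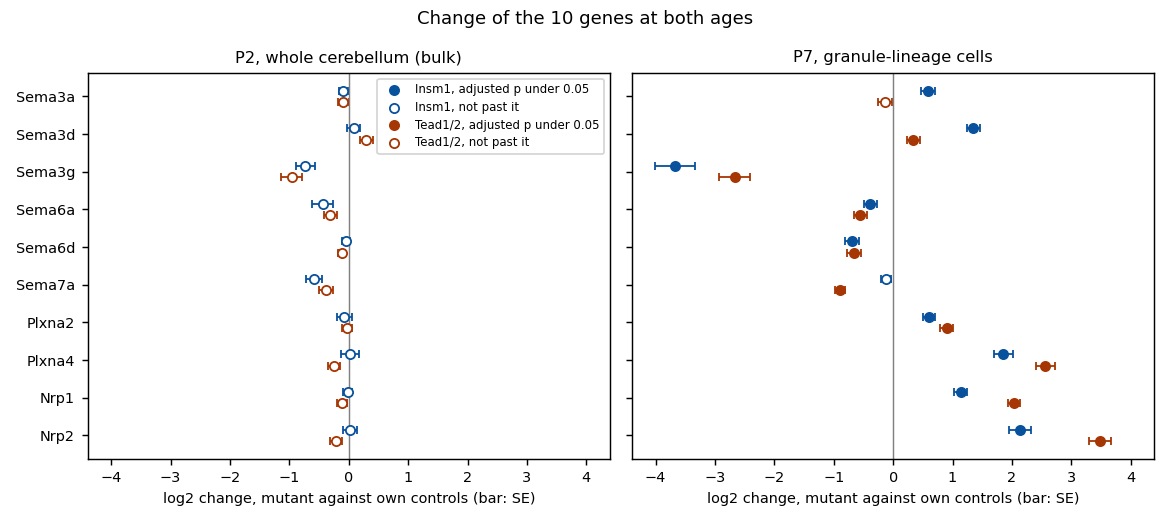
Log2 change (x axis) of the 10 genes in mutants against their own controls, with its standard error (bar), in whole cerebellum at P2 (left) and in granule-lineage cells at P7 (right). Filled points have an edgeR adjusted p under 0.05: none at P2, 9 for each line at P7, with Sema3g lowest and Nrp2 highest in both.

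Sema3g had the largest fall of the 10. It was 5.60 and 4.65 CPM in Insm1 controls, against 0.554, 0.247 and 0.376 CPM in the mutants. The 2 control libraries held 372 and 170 UMIs of it and the mutants 13, 6 and 5. The log2 change was -3.67 (SE 0.34, adjusted p = 5.99e-06). For the Tead1/2 line the values were 6.65 and 8.38 CPM in controls, against 1.23, 0.647 and 1.61 CPM in mutants (-2.67, SE 0.26, adjusted p = 1.05e-05). Neither line overlapped, and the mutant values rest on few counts.

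Sema3d and Sema3a are both secreted. Sema3d was 87.1 and 83.9 CPM in Insm1 controls, against 215, 218 and 207 CPM in the mutants (1.35, SE 0.11, adjusted p = 2.29e-06). Among Tead1/2 animals it stood at 66.1 and 77.3 CPM against 103, 86.7 and 76.6 CPM, so these groups overlapped (0.34, SE 0.11, adjusted p = 0.0382). That call was lost in 9 of the alternatives tried, among them a sex term (0.27, adjusted p = 0.159) and leaving out Tead1/2 control 1 (0.22, adjusted p = 0.333), Tead1/2 mutant 1 (0.21, 0.0745) or Tead1/2 mutant 2 (0.36, 0.0647). Leaving out Insm1 control 1, control 2, mutant 2 or mutant 3, which share the fit, gave adjusted p of 0.0527 to 0.0551. Sema3a, which binds Nrp1, was 29.0 and 35.1 CPM in Insm1 controls, against 42.2, 47.1 and 51.6 CPM in the mutants (0.58, SE 0.12, adjusted p = 0.00311). Without Insm1 control 1 its adjusted p was 0.0677, and with doublets removed at the default threshold of Scrublet, a tool that scores cells as doublets, the change was 0.37 (adjusted p = 0.0388). In the Tead1/2 line Sema3a was 30.7 to 37.0 CPM in controls and 28.5 to 32.8 CPM in mutants, which overlapped (-0.14, adjusted p = 0.441).

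Over all granule-lineage cells the transmembrane ligands Sema6a and Sema6d fell in both lines. In Insm1 controls Sema6a was 865 to 912 CPM in progenitor-like cells and 1829 to 1876 CPM in neuron-like cells. The part of the mix of both stages in these falls was not tested, and the direction in which that mix shifted depended on the clustering. Sema6a was 1608 and 1619 CPM in Insm1 controls, against 1323, 1209 and 1106 CPM in the mutants (-0.38, SE 0.10, adjusted p = 0.0198). Tead1/2 libraries read 1516 and 1595 CPM against 1199, 967 and 956 CPM (-0.55, SE 0.10, adjusted p = 0.00187). The Insm1 call on Sema6a was lost without Insm1 control 1 (adjusted p = 0.0582), control 2 (0.0910), mutant 2 (0.0606) or mutant 3 (0.0807), and with doublets removed at Scrublet's own threshold, where the change was -0.20 (adjusted p = 0.125). Sema6d, which signals through Plxna1 in other tissues, stood at 482 and 460 CPM in Insm1 controls against 300, 273 and 286 CPM in mutants (-0.69, SE 0.11, adjusted p = 0.000790). Its Tead1/2 values were 473 and 422 CPM against 335, 247 and 252 CPM (-0.66, SE 0.11, adjusted p = 0.0010). No group pair overlapped for either gene.

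Sema7a fell in the Tead1/2 line and was not called in the Insm1 line, and the difference between both effects passed its own test (-0.77, adjusted p = 0.00834). It stood at 192 and 188 CPM in Tead1/2 controls, against 107, 99.7 and 93.5 CPM in the mutants (-0.90, SE 0.08, adjusted p = 5.38e-06). In the Insm1 line the values were 183 and 167 CPM against 145, 154 and 173 CPM, which overlapped (-0.12, SE 0.08, adjusted p = 0.344). Sema7a was higher in progenitor-like than in neuron-like cells of Insm1 controls (274 to 331 against 114 to 124 CPM). By stage its Insm1 changes were -0.37 and -0.35, with the alternatives given below. The part of the mix of stages was not tested. With doublets removed at Scrublet's own threshold Sema7a was called in the Insm1 line too (-0.50, adjusted p = 0.000351), and the difference was -0.46 and not called (adjusted p = 0.0748).

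The receptor Plxna2, known to control the inward migration of granule cells together with Sema6a, rose in both lines. It stood at 397 and 346 CPM in Insm1 controls against 566, 568 and 525 CPM in mutants (0.60, SE 0.10, adjusted p = 0.000793), and at 220 and 280 CPM in Tead1/2 controls against 430, 481 and 458 CPM in mutants (0.90, SE 0.10, adjusted p = 3.19e-05). Plxna4, a receptor for Sema3a and Sema6a, was 3.61 and 4.56 CPM in Insm1 controls, against 12.8, 14.7 and 15.8 CPM in mutants (1.85, SE 0.16, adjusted p = 3.11e-06). In the Tead1/2 line Plxna4 stood at 2.95 and 3.91 CPM against 17.8, 21.4 and 19.8 CPM (2.56, SE 0.16, adjusted p = 2.15e-07). Control and mutant libraries were apart in all of these.

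The co-receptors rose in both lines, and Nrp2 had the largest rise of the 10. Nrp2 was 2.47 and 2.32 CPM in Insm1 controls, against 10.53, 9.56 and 11.2 CPM in the mutants (2.14, SE 0.18, adjusted p = 2.80e-06). For the Tead1/2 line the values were 2.09 and 2.67 CPM against 21.1, 31.3 and 25.3 CPM (3.48, SE 0.18, adjusted p = 5.08e-08). The UMI counts of Nrp2 were 85 to 164 in the 4 control libraries and 149 to 774 in the 6 mutant libraries. Nrp1 was 7.18 and 7.57 CPM in Insm1 controls, against 15.7, 17.3 and 14.4 CPM in the mutants (1.14, SE 0.10, adjusted p = 6.66e-06). Its Tead1/2 values were 7.47 and 6.48 CPM against 28.1, 29.2 and 26.8 CPM (2.03, SE 0.11, adjusted p = 5.45e-08). With the 10 genes left out of clustering the changes of Nrp1 were 0.58 (adjusted p = 0.0030) and 1.09 (adjusted p = 1.61e-05). The Tead1/2 mutants were above the Insm1 mutants in every library for both genes, while the controls of both lines lay together.

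**Figure D3:**
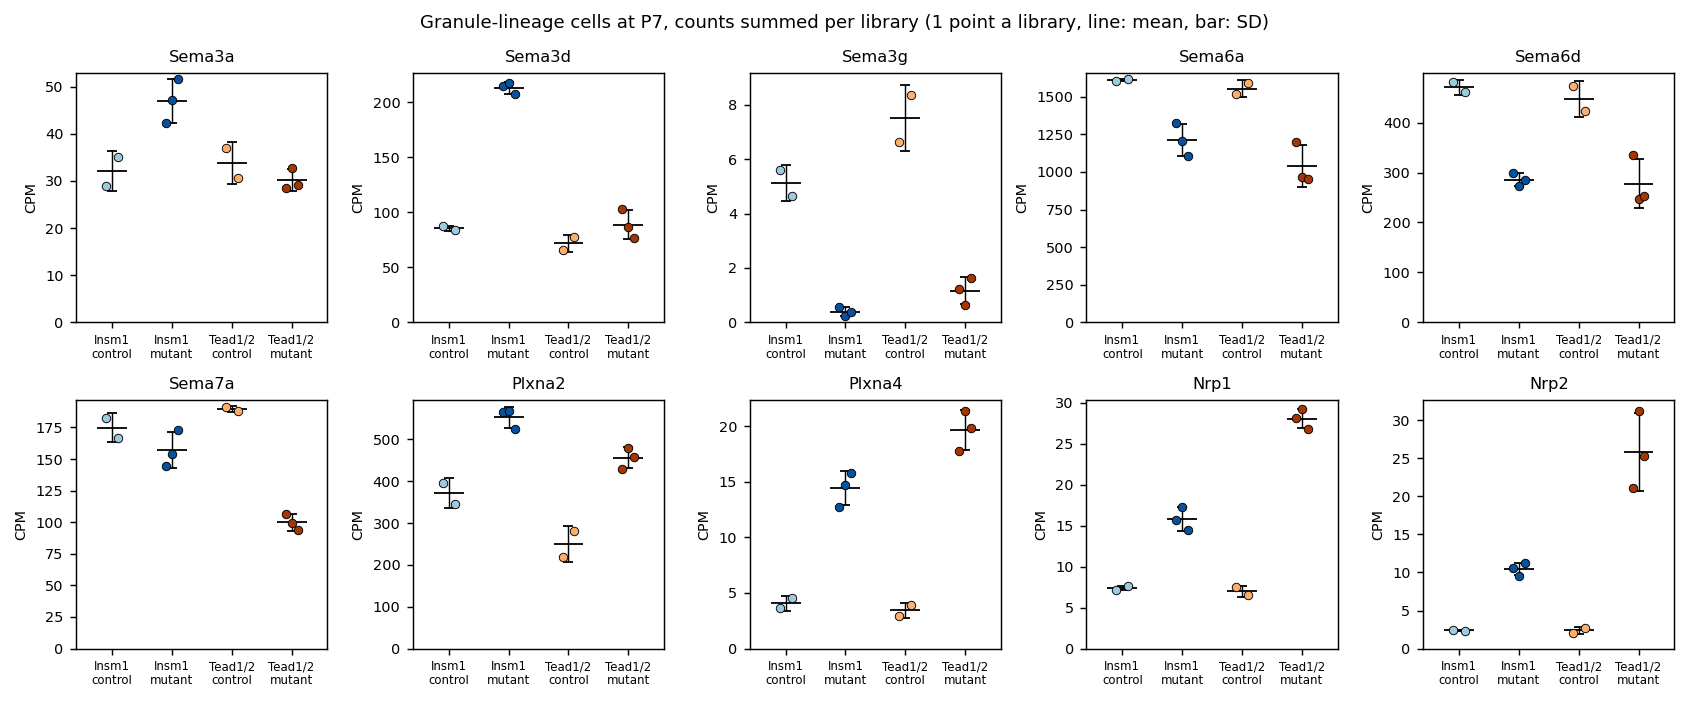
Normalised counts (CPM) of each gene in granule-lineage cells at P7, UMIs summed per library, 1 point a library, with the group mean (line) and SD (bar) and a y axis of its own for each gene. Nrp2 sat between 2.09 and 2.67 in all 4 controls, between 9.56 and 11.2 in Insm1 mutants and between 21.1 and 31.3 in Tead1/2 mutants, and Sema3g was at or under 1.61 in all 6 mutants.

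The difference between both effects was tested as an interaction over the 10 P7 libraries, where edgeR called 1% of the 17162 genes and 4 of the 10 members. The Tead1/2 effect was below the Insm1 effect for Sema3d (-1.01, SE 0.15, adjusted p = 0.00742) and Sema7a (-0.77, SE 0.12, adjusted p = 0.00834). It was above it for Nrp1 (0.90, SE 0.14, adjusted p = 0.0111) and Nrp2 (1.35, SE 0.24, adjusted p = 0.0211). Sema3a missed the threshold (-0.72, SE 0.16, adjusted p = 0.0667). Sema3d alone kept its call in every alternative run. The Nrp2 call was lost without Insm1 control 1 (adjusted p = 0.132), Insm1 control 2 (0.0705), Insm1 mutant 2 (0.0656) or Tead1/2 control 1 (0.121), with a sex term (0.0694), with the 10 genes left out of clustering (0.101) and at Scrublet's threshold (0.0509). The Sema7a call was lost at Scrublet's threshold, as above, and the Nrp1 and Sema7a calls without Insm1 control 2 (both 0.0512). The Nrp1 call was also lost without Tead1/2 control 2 (0.0663) and with the 10 genes left out of clustering (0.52, adjusted p = 0.200).

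The libraries hold RNA from outside the cells, which was read from barcodes with under 100 transcripts (7023774 to 11159980 UMIs a library). In these barcodes Plxna4 stood at 24.2 to 35.9 CPM in controls and 47.9 to 58.8 CPM in mutants, Nrp1 at 34.9 to 47.5 and 43.6 to 57.8 CPM, and Nrp2 at 13.2 to 19.6 and 21.9 to 35.6 CPM. The lineage cells were below that level for these 3 genes in every library. Their level as a ratio to the low barcodes was higher in mutants: for Nrp2 it was 0.144 to 0.186 in Insm1 controls against 0.421 to 0.508 in mutants, and 0.110 to 0.136 against 0.682 to 0.879 in the Tead1/2 line. For Nrp1 it was 0.145 to 0.206 in all controls and 0.276 to 0.589 in all mutants, and for Plxna4 0.115 to 0.149 and 0.253 to 0.382. How much of these 3 genes' UMIs in lineage cells came from outside the cells was not tested.

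Sema3g in the low barcodes was 3.23 to 5.12 CPM in Insm1 controls and 1.18 to 2.23 CPM in mutants, and 4.90 to 6.36 against 1.61 to 2.03 CPM in the Tead1/2 line. The lineage cells were above the low barcodes in every control (ratios 1.09 to 1.44) and below them in every mutant (0.203 to 0.795). Sema7a kept ratios of 1.08 to 1.52 in all 10 libraries and fell in the low barcodes too, from 143 CPM in both Tead1/2 controls to 73.5 to 86.7 CPM in mutants. Plxna2 ratios were 0.770 to 1.04 in controls and 1.09 to 1.19 in mutants.

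**Figure D4:**
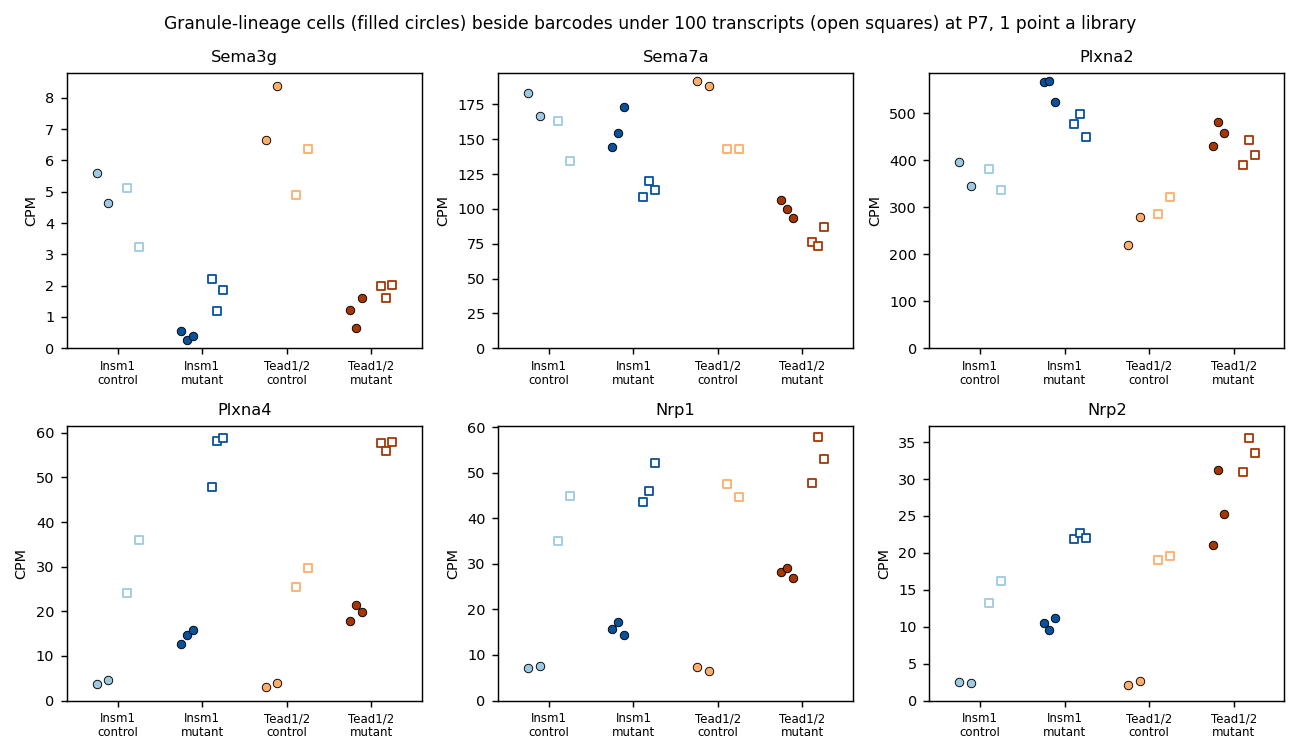
Normalised counts (CPM) of 6 genes in granule-lineage cells (filled circles) beside barcodes under 100 transcripts (open squares) at P7, 1 point a library. Plxna4, Nrp1 and Nrp2 circles lie under their squares in all 10 libraries, and Sema3g circles lie above the squares in controls and under them in mutants.

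Markers of other cells moved with these changes in the lineage cells. The sum of 18 skeletal muscle markers was 66.8 to 86.3 CPM in controls, 189 to 235 CPM in Insm1 mutants and 322 to 653 CPM in Tead1/2 mutants. The sum of 8 unipolar brush cell markers was 372 to 565 CPM in controls and 1024 to 1267 CPM in mutants. Endothelial markers (8 genes) went the other way, 29.9 to 37.3 CPM in controls and 14.5 to 21.2 CPM in mutants. Meningeal fibroblast markers (8 genes) stood at 14.3 to 16.2 CPM in controls and 39.2 to 65.2 CPM in mutants, and astroglial markers (12 genes) stood at 337 to 449 CPM in controls and 240 to 321 CPM in mutants, neither with overlap. Purkinje markers (11 genes) were lower in mutants within each line, at 1519 and 1603 CPM against 1378 to 1449 CPM (Insm1) and 1627 and 1528 against 1183 to 1380 CPM (Tead1/2). GABAergic interneuron markers (11 genes) were too, at 138 and 153 against 80.3 to 95.9 CPM and 167 and 177 against 148 to 162 CPM, as were oligodendrocyte lineage markers (10 genes), at 237 to 266 CPM in controls and 194 to 237 CPM in mutants. Mural markers (8 genes) were higher, at 3.83 to 6.94 CPM in controls and 8.41 to 18.3 CPM in mutants. Microglial markers (9 genes) were 53.5 and 77.8 CPM in Insm1 controls and 95.0 to 128 CPM in their mutants, and overlapped in the Tead1/2 line (124 and 316 against 82.9 to 218 CPM). Their part in the changes of the members was not tested. Cells of the skeletal muscle class, found in mutants, held Nrp2 at 13.8 to 18.5 CPM and Nrp1 at 20.5 to 24.1 CPM in Insm1 mutants, and at 32.9 to 37.1 and 22.9 to 26.4 CPM in Tead1/2 mutants.

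The lineage was then read by stage. Progenitor-like cells of controls lay in clusters 8 and 13 (99.3% of control against 18.4% of mutant cells of that class) and those of mutants in clusters 14 and 15 (81.6%). Neuron-like cells of controls lay in clusters 7, 9, 10 and 11 (99.1% against 27.2%) and those of mutants in clusters 12, 19 and 35 (72.8%). Both mutant lines also lay apart from each other: of the progenitor-like cells of Insm1 mutants 1009 were in cluster 14 and 2318 in cluster 15, and of those of Tead1/2 mutants 2343 and 605. The values below therefore compare different clusters, between controls and mutants and between lines. Levels given for a single cluster are over all its cells, of controls and mutants of both lines. Cluster 9, with 4561 control cells, was counted as neuron-like by 9 neuron markers but also had 8 progenitor markers and mitotic genes among its leading genes, and the neuron-like levels of controls mix it with clusters that differ from it: Plxna2 was 137 CPM in cluster 9, 211 in cluster 11, 520 in cluster 7 and 1187 in cluster 10, and Sema7a was 139, 47.0, 164 and 40.5 CPM in the same order. A mitotic cluster of this kind was named progenitor-like with doublet calls ignored and had no name with the 10 genes left out of clustering. Cluster 7, with 1727 control and 40 mutant cells, had a median of 17848 UMIs a cell and 6 progenitor markers beside its 7 neuron ones. With the 10 genes left out, a cluster of 2476 cells with the same first 3 leading genes (A730004F24Rik, Zmat4 and Nrg1) was named progenitor-like. Of its cells 1088, 627, 403 and 320 came from the 4 controls. In progenitor-like cells 8 members were called with Insm1 deleted (6 rose, 2 fell) and 10 with Tead1 and Tead2 deleted (4 rose, 6 fell), where 19% (10.3% higher, 8.73% lower) and 20.2% (10.6% higher, 9.65% lower) of 15241 genes were called. In neuron-like cells 9 were called in each line (6 rose and 3 fell, 5 rose and 4 fell), where 29.7% (16% higher, 13.7% lower) and 30% (16.9% higher, 13.1% lower) of 15512 genes were called. The difference between both effects, added after these values were seen, was called for Sema3d (-1.04) and Nrp1 (1.39) in neuron-like cells, where 1.13% of all genes were. Neither was called at Scrublet's own doublet threshold or with the 10 genes left out of clustering (-0.52, adjusted p = 0.0814, and 1.03, adjusted p = 0.148).

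Plxna2 rose in both stages of both lines. In progenitor-like cells it stood at 68.3 and 56.4 CPM in Insm1 controls, against 335, 388 and 396 CPM in mutants (2.58, SE 0.11, adjusted p = 6.50e-09). Among Tead1/2 animals it stood at 41.0 and 47.3 CPM against 351, 414 and 385 CPM (3.15, SE 0.11, adjusted p = 9.76e-10). The size depended on the clustering: with the 10 genes left out of it the changes were 0.38 (adjusted p = 0.00406) and 1.01 (adjusted p = 1.26e-06). At Scrublet's threshold the Tead1/2 one was 1.71 (adjusted p = 0.00693). Plxna2 itself was not among the variable genes used for clustering, so leaving the genes out took away other members and not Plxna2. With the 10 genes left out, the progenitor-like class of controls also took in the cluster of 2476 cells led by genes of cluster 7. The part of that naming was not tested. The barcodes under 100 transcripts held Plxna2 at 285 to 381 CPM in controls and 391 to 498 CPM in mutants. In neuron-like cells the change was 0.63 and 0.54 (adjusted p = 0.000159 and 0.000488). It was 0.02 and 0.11, not called, when the 10 genes were left out of clustering, and 0.06 and 0.10, not called, with doublets removed at Scrublet's own threshold. With doublet calls ignored the Tead1/2 change was 0.20 (adjusted p = 0.119).

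Sema3d took opposite directions in progenitor-like cells. It stood at 34.6 and 39.0 CPM in Insm1 controls against 88.6, 82.0 and 93.7 CPM in mutants (1.26, SE 0.09, adjusted p = 2.80e-07), and at 28.7 and 30.2 CPM in Tead1/2 controls against 16.1, 15.4 and 16.0 CPM in mutants (-0.87, SE 0.09, adjusted p = 1.29e-05). The difference between both effects, a test added after these values were seen, was -2.13 (SE 0.13, adjusted p = 2.85e-06), where 2.19% of all genes were called. Cluster 15, which held most of these cells of Insm1 mutants, had Sema3d at 97.2 CPM, and cluster 14, which held most of those of Tead1/2 mutants, at 15.2 CPM. With the 10 genes left out of clustering the Insm1 change was 0.43 (adjusted p = 0.0142), and with doublet calls ignored the Tead1/2 change was -0.51 (adjusted p = 0.00063). With doublets removed at Scrublet's threshold the Insm1 change was 0.30 (adjusted p = 0.716) and the difference -1.59 (adjusted p = 0.519). In neuron-like cells it rose in both lines (1.74 and 0.70, adjusted p = 8.08e-08 and 0.000229). Sema3a in progenitor-like cells also went opposite ways (0.39, adjusted p = 0.0192, and -0.47, adjusted p = 0.00620). Both Sema3a calls were lost with Scrublet's threshold (-0.0015, adjusted p = 0.999, and -0.20, adjusted p = 0.419). The Insm1 call was also lost without Insm1 control 1 (adjusted p = 0.241) or mutant 3 (0.0770), and the Tead1/2 call without Tead1/2 control 1 (0.124) or with the 10 genes left out of clustering (0.221).

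Nrp2 in progenitor-like cells stood at 1.44 and 1.40 CPM in Insm1 controls against 11.5, 7.96 and 9.34 CPM in mutants (2.75, SE 0.31, adjusted p = 2.31e-05). Tead1/2 libraries read 1.75 and 1.11 CPM against 22.3, 36.4 and 25.0 CPM (4.25, SE 0.27, adjusted p = 9.48e-08). In neuron-like cells the changes of Nrp2 were 2.10 and 3.15 (adjusted p = 3.58e-06 and 6.47e-08), the first of them 1.29 (adjusted p = 0.0011) at Scrublet's threshold. Nrp1 changed by 0.91 and 1.34 in progenitor-like cells (adjusted p = 9.11e-05 and 1.85e-06), and its neuron-like changes were 1.21 and 2.59 (adjusted p = 1.93e-05 and 1.48e-08), the first of them 1.85 (adjusted p = 1.41e-05) with the 10 genes left out of clustering. Plxna4 rose in both stages of both lines (1.39 and 2.82 in progenitor-like cells, 2.19 and 2.44 in neuron-like cells, adjusted p from 2.09e-07 to 0.000352).

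Sema7a in progenitor-like cells stood at 331 and 274 CPM in Insm1 controls against 228, 228 and 246 CPM in mutants (-0.37, SE 0.10, adjusted p = 0.0142). For the Tead1/2 line the values were 303 and 306 CPM against 159, 138 and 124 CPM (-1.10, SE 0.10, adjusted p = 1.58e-06). The Insm1 call was lost without Insm1 control 1 (adjusted p = 0.232) or mutant 2 (0.0618), with doublet calls ignored (-0.18, adjusted p = 0.188) and with the 10 genes left out of clustering (-0.13, adjusted p = 0.325). In neuron-like cells Sema7a fell by 0.35 (adjusted p = 0.0177) with Insm1 deleted, a direction that turned to 0.74 (adjusted p = 0.000204) with the 10 genes left out of clustering and to 0.55 (adjusted p = 0.0227) with Scrublet's threshold. That call was lost without Insm1 control 1 (adjusted p = 0.1198), control 2 (0.0507), mutant 1 (0.0677) or mutant 2 (0.0672). With Tead1 and Tead2 deleted it fell by 0.77 (adjusted p = 5.44e-05), or by 0.38 (adjusted p = 0.0287) with the 10 genes left out of clustering, and its change was -0.37 (adjusted p = 0.104), not called, with Scrublet's threshold. Sema3g fell in both stages of both lines (-3.54 and -2.71 in progenitor-like cells, -3.62 and -2.55 in neuron-like cells), and in progenitor-like cells of Insm1 mutants it rests on 7, 0 and 4 UMIs.

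Sema6a was called lower in both stages of the Tead1/2 line and passed in neither stage of the Insm1 line. It stood at 865 and 912 CPM in progenitor-like cells of Insm1 controls against 770 to 848 CPM in mutants (-0.12, adjusted p = 0.379), and its neuron-like change was -0.18 (adjusted p = 0.2495). Both were called with the 10 genes left out of clustering (-0.64 and -0.65), and the neuron-like one with no low-count filter (-0.22) and at Scrublet's threshold (-0.56). The Tead1/2 changes were -0.43 and -0.46 (adjusted p = 0.00108 and 0.00609). The difference between the effects on Sema6a was not called in either stage (adjusted p = 0.220 and 0.561). Sema6d was at 0.03 (adjusted p = 0.902) in progenitor-like cells of Insm1 mutants, or -0.50 (adjusted p = 0.000344) with the 10 genes left out of clustering, and fell in the other comparisons by stage (-0.78 in neuron-like cells of Insm1 mutants, -0.50 and -0.60 with Tead1 and Tead2 deleted). The first of these was -1.27 with the 10 genes left out of clustering and -1.24 at Scrublet's threshold.

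**Figure D5:**
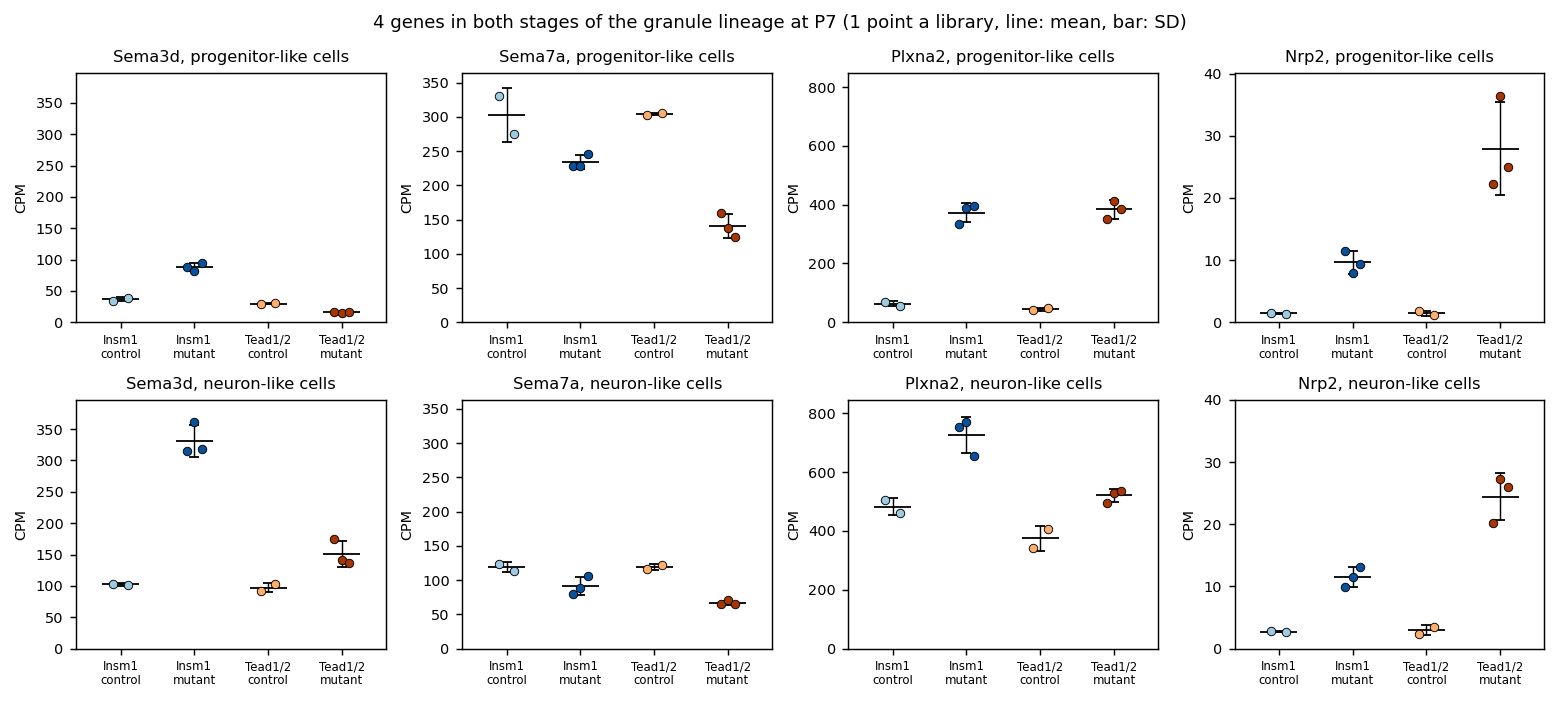
Normalised counts (CPM) of Sema3d, Sema7a, Plxna2 and Nrp2 in progenitor-like (top) and neuron-like (bottom) granule-lineage cells at P7, 1 point a library, with the group mean (line) and SD (bar) and 1 scale a gene. Plxna2 in progenitor-like cells sat between 41.0 and 68.3 in the 4 controls and between 335 and 414 in the 6 mutants, a gap that was smaller with the 10 genes left out of clustering (log2 changes of 0.38 and 1.01).

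Among the cell classes of the 4 P7 controls, the members were placed differently. Values given for single clusters, here and below, are taken over control and mutant cells together, unlike the class values of controls beside them. The GABAergic interneuron-like class mixes unlike clusters: cluster 1, with 581 to 1090 cells in each control library, a median of 20753.5 UMIs a cell and 6 granule progenitor markers beside its 8 interneuron ones, had Sema3d at 59.4 CPM and Sema7a at 142 CPM, while clusters 16 and 17 had Sema3d at 6.18 and 5.12 CPM and Sema7a at 19.3 and 32.2 CPM. Nrp1 was highest in endothelial-like cells (median 286 CPM, range 161 to 391 over 4 libraries) and microglia-like cells (243 CPM, 137 to 346), which overlapped, and lowest in neuron-like granule cells (6.06 CPM, 5.03 to 6.29). Nrp2 was also highest in endothelial-like cells (164 CPM, 103 to 294), above microglia-like cells (54.5 CPM, 30.8 to 90.6), and lowest in progenitor-like cells (1.42 CPM, 1.11 to 1.75). Plxna4 was highest in Purkinje-like cells (220 CPM, 181 to 377), and the bottom 3 classes, GABAergic interneuron-like (4.56 CPM), progenitor-like (3.91 CPM) and neuron-like granule cells (3.52 CPM), overlapped.

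Plxna2 stood apart at the low end: progenitor-like cells had 51.9 CPM (41.0 to 68.3), under the other 10 classes, whose medians were 239 to 434 CPM with neuron-like granule cells at the top. Sema7a was the reverse, with progenitor-like cells at 305 CPM (274 to 331) and the other 10 classes at medians of 85.7 to 149 CPM, with interneuron clusters 16 and 17 under that range. Sema3a was highest in Purkinje-like (284 CPM, 245 to 330) and meningeal fibroblast-like cells (266 CPM, 211 to 316), and the other 9 classes had medians of 22.6 to 40.9 CPM. Sema6d was highest in astroglia-like cells (1742 CPM, 1554 to 1802) and lowest in progenitor-like cells (271 CPM, 255 to 333), which overlapped Purkinje-like cells.

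Sema6a was highest in neuron-like granule cells (1892 CPM, 1829 to 1917) with no class under a median of 854 CPM. Sema3d was highest in oligodendrocyte-lineage-like cells (119 CPM, 105 to 129), next to neuron-like granule cells (102 CPM, 92.2 to 104), and by class lowest in progenitor-like cells (32.4 CPM, 28.7 to 39.0), which overlapped endothelial-like cells, though interneuron clusters 16 and 17 were lower. For Sema3g, endothelial-like cells had 8.65 CPM (6.93 to 9.39), neuron-like granule cells 6.48 CPM (4.69 to 8.95) and the other classes medians of 1.92 to 5.37 CPM, and the top 3 classes overlapped. The Purkinje-like values rest on 10 to 154 cells a control library and the mural-like ones on 12 to 58. In mutants the endothelial-like level of Sema3g was 6.32 to 10.2 CPM (Insm1) and 2.81 to 8.77 CPM (Tead1/2), while astroglia-like cells, for example, went from 2.93 to 5.96 CPM in controls to 0.167 to 0.775 CPM in mutants. The make-up of the astroglia-like class differed by group. Its clusters 4 and 5 (medians of 27133 and 8205 UMIs a cell) held 623 to 706 and 227 to 252 cells in Insm1 controls. They held 105 to 261 and 225 to 272 cells in Tead1/2 mutants. Classes share free RNA within a library, so a level near that of the low barcodes is not by itself expression in that class.

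Over all kept cells of P7, which mix every class, 8 members were called with Insm1 deleted (5 rose, 3 fell) and 7 with Tead1 and Tead2 deleted (4 rose, 3 fell), where 33.4% (18.2% higher, 15.2% lower) and 48.3% (25.8% higher, 22.6% lower) of 24251 genes were called. Sema3g fell by 2.58 and 2.62, Sema7a by 0.50 and 1.60, and Sema6a by 0.41 and 0.63 on the log2 scale (adjusted p from 1.53e-07 to 0.00156). Nrp2 rose by 0.82 and 1.15 and Plxna4 by 1.05 and 1.53 (adjusted p from 3.59e-05 to 0.00433), and Plxna2 by 0.51 and 0.73 (0.00124 and 7.15e-05). Sema6d, which fell in the lineage cells, was at -0.02 and -0.21 here (adjusted p = 0.861 and 0.0545). The second had every mutant below every control, as did 29.9% of all genes, and was called in 6 of 17 alternatives (adjusted p down to 0.0152). The Insm1 rise of Nrp1 (0.37, adjusted p = 0.0477) was lost in 10 of the alternatives, such as without Insm1 control 1 (0.19, adjusted p = 0.400). Without Tead1/2 control 2 the Tead1/2 rise of Nrp1 (0.49, adjusted p = 0.0102) was 0.35 (adjusted p = 0.127), and at Scrublet's threshold 0.48 (adjusted p = 0.0589). Without Insm1 control 1 the Insm1 rise of Plxna4 was 0.66 (adjusted p = 0.0164). The mutants held 719 to 2878 cells of the skeletal muscle class a library and the controls 0 to 5.

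A further 60 genes of the system (14 semaphorins, 7 plexins, 10 further receptors and 29 signal transducers) were read beside the members. In the P7 lineage 6 of the 14 other semaphorins rose and 2 fell in each line, 3 of the 7 other plexins rose and 1 fell with Insm1 deleted, and 2 rose and 1 fell with Tead1 and Tead2 deleted. Of the transducers tested (28), 4 rose and 6 fell (Insm1) and 6 rose and 5 fell (Tead1/2), and of 9 further receptors 1 rose and 3 fell, and 1 rose and 2 fell. Over all genes of these comparisons 13.3% were higher and 8.43% lower (Insm1) and 14.5% and 9.83% (Tead1/2). Those with the smallest adjusted p in the Insm1 line were Sema5b (3.26), the adhesion molecule Chl1 (2.84), Plxnd1 (2.79), Sema3f, a ligand of Nrp2 (2.49), Sema4d, a ligand of B-type plexins (0.79), and Mical2, an actin-oxidising enzyme (0.85). In the Tead1/2 line they were Sema5b (3.48), Chl1 (2.33), Sema3e, a direct ligand of Plxnd1 (2.04), Plxnd1 (3.00), Sema5a (1.40) and Sema3f (2.34), all as log2 changes. Sema3e (1.01, adjusted p = 0.0256) and Sema5a (0.86, adjusted p = 0.0313) also differed between both effects. At P2, 0 of the 59 tested were called by edgeR in either line, where 0.689% (Insm1) and 0% (Tead1/2) of all genes were.

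Across the 36 clusters of P7 cells, the genes whose level was most like that of each member were read among 11005 genes by Pearson's r of log2(CPM + 1). Sema7a was closest to Atoh1 (0.934), the transcription factor of granule progenitors, then Ankdd1a (0.921) and Tnfaip8 (0.897). Sema6d was closest to Ncan (0.861), then Ptprz1, then Sdc3 (0.826). Among the genes closest to Plxna4 were Kcnn3 (0.840) and Plk2 (0.838). Nrp2 was closest to Nrp1 (0.740), Nectin2 (0.727) and Abca1 (0.716), and Nrp1 to Alpk1 (0.831), then Elk3, then Dusp6 (0.818). Sema3d was closest to Gm42397 (0.837), Kcnq5 (0.832) and Kazn (0.813), and Sema3g to Mfng (0.813), Trak2 (0.780) and Cyyr1 (0.779). Sema3a was closest to Trabd2b, Aox3 and Sulf1 (each 0.763), Sema6a to Tnik (0.765), Fam107b (0.719) and Atp9a (0.693), and Plxna2 to Cdk17 (0.736), Tdrd7 (0.687) and Irf2bpl (0.683). Clusters share libraries and free RNA, so these values are a description.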

How the data were processed

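The authors' bulk tables hold RSEM expected counts per gene, 1 column a library, deposited without scaling, of which 6.84 to 8.77% were not whole and were rounded. Column names tie each table to the other line than its own name does, and the columns were followed. The authors' P7 matrices hold counts of transcripts (UMIs) per gene and barcode, per the file headers for genome GRCm39, made with a split-pool kit per the labels' protocols. The submitters' processing notes name RSEM 1.3.3, STAR 2.7.9a, edgeR and limma 3.42.2 without their roles, and of the bulk tables the build is not given in the sources used here. ATAC and CUT&RUN libraries were not analysed here.

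Libraries were tested with edgeR 4.0.16 (quasi-likelihood test, TMM, filterByExpr, Benjamini-Hochberg adjustment over all genes, threshold 0.05), each P2 line alone and the 10 P7 libraries in 1 fit with summed UMIs. CPM values use TMM-scaled totals at P2 and, at P7, for all kept cells, the lineage and its 2 stages, and plain totals for other classes and low-count barcodes. DESeq2 1.42.0, no filter on low counts (genes with at least 1 count), a block by number, a sex term read from the data, other clusterings and leaving out each library were alternatives. At P2 all Insm1 controls and Insm1 mutants 1 and 2 were read as female, and Insm1 mutants 3 and 4 as male. In the Tead1/2 line at P2 only control 2 and mutant 4 were read as female. Sex and genotype were thus not balanced at P2. P7 barcodes needed 1000 UMIs, 500 genes and under 15% mitochondrial counts. Scrublet's own threshold marked 0 or 1 cell in Insm1 mutant 1, Tead1/2 control 2 and Tead1/2 mutant 1, and 36.4 to 55.3% of each other library. In that setting replicates of every group but the Insm1 controls were thus filtered unequally. The highest 4% of scores were therefore removed in each library, a choice made after seeing the data, which left 77236 of 79838 cells. Libraries shared 0 barcodes. Cells were scaled to 10000 and clustered with scanpy 1.11.5 (2000 variable genes, 30 components, 15 neighbours, Leiden resolution 1). Of the 10 members, 5 were among the variable genes: Sema3a, Sema6d, Plxna4, Nrp1 and Nrp2. Sema3d, Sema3g, Sema6a, Sema7a and Plxna2 were not, so they did not enter the clustering themselves. Clusters were named by at least 3 markers, giving 33 named of 36 clusters and 11 of the granule lineage.

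Named were the 10 members, up to 6 further guidance genes a comparison by adjusted p, the deleted genes, and the 3 genes most alike each member over clusters of at least 100 cells among genes with at least 20 CPM in 1 cluster, of which 1 is not reported here. The members and lists were chosen with earlier results of these data known. On simulated data edgeR recovered 97 of 100 genes changed 2-fold and 52 of 100 changed 1.5-fold in the P2 Insm1 comparison (19582 genes). In the P2 Tead1/2 comparison (20247 genes) it recovered 97 and 45 of 100, though the fit to the data called 0 genes there. In the P7 lineage Insm1 comparison (17162 genes) it recovered 80 and 23 of 100. P-values measure the spread between single pups. At P7 that spread also holds the difference in dissection within each group, since the main fit had no term for it. Same-numbered libraries of a line deviated with r from -0.13 to 0.23 at P2, so numbers were not taken as pairs.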

Additional observations from a re-analysis of the deposited data

Results flagged for a closer look

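The effects of both deletions differed by a test of the difference itself for 4 members in P7 granule-lineage cells, where 1% of all genes were called, each value being the Tead1/2 log2 change minus the Insm1 one by edgeR: Sema3d (-1.01, adjusted p = 0.00742), Sema7a (-0.77, adjusted p = 0.00834), Nrp1 (0.90, adjusted p = 0.0111) and Nrp2 (1.35, adjusted p = 0.0211). In progenitor-like cells, in a test added after the values were seen, they differed for Sema3a (-0.86, adjusted p = 0.00798), Sema3d (-2.13, adjusted p = 2.85e-06), Sema7a (-0.73, adjusted p = 0.0117) and Plxna4 (1.43, adjusted p = 0.0316), where 2.19% of all genes were called. In neuron-like cells they differed for Sema3d (-1.04, adjusted p = 0.00426) and Nrp1 (1.39, adjusted p = 0.00320), where 1.13% of all genes were called. The progenitor-like cells of Insm1 mutants lay mostly in cluster 15 and those of Tead1/2 mutants mostly in cluster 14, where Sema3d was 97.2 and 15.2 CPM, Sema7a 231 and 122 CPM and Plxna4 7.92 and 29.6 CPM, in that order. Of 17 alternatives the Plxna4 difference in progenitor-like cells was called in 7. The Sema3a one was also lost without control 1 of either line (adjusted p = 0.0722, Insm1, and 0.0779, Tead1/2), and the Sema7a one without Insm1 control 2 (0.0819) or Tead1/2 control 1 (0.0631) or 2 (0.0702). At Scrublet's own doublet threshold none of the progenitor-like and neuron-like differences was called. That setting filtered replicates unequally: it removed 0 cells of Insm1 mutant 1 but 45.6% of Insm1 mutant 2 and 55.3% of Insm1 mutant 3. The 10 genes in the P2 groups of 4 libraries gave 30 sets of values that were tested for a library far from the others, of which 0 held one, and chance gives about 1 in 20.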

How the results depend on the processing

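Over 2310 values of members under alternatives, 2168 kept their side of the threshold, of which 52, not called in either fit, turned sign. A further 81 lost a call, 57 gained one and 4 turned sign against a call. Those 4 were Sema6d (-0.50) in progenitor-like cells of Insm1 mutants and Sema7a (0.74) in neuron-like ones, both with the 10 genes left out of clustering, and Sema3a (-0.0015, progenitor-like) and Sema7a (0.55, neuron-like) at Scrublet's own threshold. The cause was not tested. At P2, 0 members were called in either line, against 2 (Insm1) and 2 (Tead1/2) by DESeq2, 2 and 3 with no filter, and 0 to 2 leaving out Tead1/2 libraries. Of the differences between both effects, 4 were called in the lineage, against 2 with the 10 genes left out of clustering, 2 at Scrublet's threshold and 1 to 5 leaving out a library. In progenitor-like cells it was 4, against 7 by DESeq2, 8 with no filter, 0 at Scrublet's threshold and 1 to 7 leaving out a library. In neuron-like cells it was 2, against 6 with no filter, 1 with the 10 genes left out of clustering and 0 at Scrublet's threshold.

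With the number as a replicate block, 2 members were called at P2 with Tead1 and Tead2 deleted, Sema3g (-1.14) and Sema7a (-0.51, both adjusted p = 0.00938), in a fit where mutant 4 has no control of its number and adds nothing. At P7 the block, which marks the dissection, left the counts at 9 in both lines of the lineage, and ended the Nrp1 call over all cells with Insm1 deleted (0.36, adjusted p = 0.0530). It added calls on differences between both effects: Sema3a (-0.73) and Plxna4 (0.71) in the lineage, Plxna2 (0.58) and Sema6d (-0.53) in progenitor-like cells and Nrp2 (1.07) in neuron-like cells.

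Counts of all genes called moved too. At P2 they were 135 (Insm1), against 312 by DESeq2, 212 with no filter, 88 with a sex term, 64 with the block and 64 to 132 leaving out a library, and 0 (Tead1/2), against 955, 1287, 3, 236 and 0 to 646, and 4 with all 15 libraries. For the P2 difference it was 0, against 17, 11 and 1 by DESeq2, no filter and the block and 0 to 8 leaving out a library. For the lineage difference it was 172, against 402, 739 and 101 (DESeq2, no filter, sex term) and 70 to 297 leaving out a library. For the progenitor-like difference it was 334, against 794 with no filter, 221 with a sex term, 15 at Scrublet's threshold and 156 to 521, and for the neuron-like one 175, against 352, 735, 67 and 6 (DESeq2 first) and 47 to 354. At Scrublet's threshold 1519 of 2900 (progenitor-like, Insm1), 2221 of 4604 and 2192 of 4649 (neuron-like, Insm1 and Tead1/2) and 5362 of 8107 (all cells, Insm1) were called. Leaving out a library gave 2456 to 4364 and 2584 to 4604 in the lineage (Insm1, Tead1/2), 1926 to 3343 and 1934 to 3514 in progenitor-like and 2913 to 5188 and 2962 to 4993 in neuron-like cells. With 2 controls a line at P7, leaving out 1 assumes the lone control varies like the other groups. Sema3g rests on 5 to 37 UMIs a mutant library in the lineage, which limits the precision of its change.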
